A study of Mus musculus with 57 samples.

Results

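Trophectoderm (TE) is the outer cell layer of the blastocyst that forms the placenta, and it separates from the inner cell mass before the epiblast (Epi) and primitive endoderm (PrE) do. Its regulators considered here were 8 genes: Cdx2, Eomes, Elf5, Gata2, Gata3, Tfap2c, Tead4 and Hand1. They are 8 of 21938 protein-coding genes. The list was chosen with earlier results of these data known, so counts of members are descriptions and not independent support. Every peak whose summit lay within 50 kb of the transcription start site (TSS) of a member was collected. This gave 897 of the 775358 peaks in 30 lists. In GRCm38 (mm10) the TSS of Elf5, Gata3 and Tfap2c lie on chromosome 2 at 103411688, 9890034 and 172549593, and those of Gata2 and Tead4 on chromosome 6 at 88193891 and 128300823. The TSS of Cdx2 is at 147307270 of chromosome 5, that of Eomes at 118478212 of chromosome 9 and that of Hand1 at 57832818 of chromosome 11. Cdx2, Gata3, Tead4 and Hand1 are on the minus strand and the others on the plus strand. TEAD4 acts at the top of the TE program and, with its co-activators of the Hippo pathway, switches on Cdx2. CDX2, GATA3 and TFAP2C establish TE identity, while EOMES and ELF5 maintain trophoblast stem cells. GATA2 and HAND1 act in the differentiating trophoblast. GATA factors read a short motif around the letters GATA. Induced cells of this study enter PrE, not TE, so the comparison asks what happens at genes of a lineage that the cells do not enter.

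The cells were mouse KH2 embryonic stem (ES) cells carrying TRE:GATA6-DSREd2, a transgene that yields GATA6 and a red fluorescent protein when doxycycline is given. All groups carried this transgene, which a doxycycline-responsive promoter drives, in 1 cell line labelled C57BL/6. At 0 h the cells grew in 2i medium with LIF. At 2, 4 and 8 h they had been in serum medium with LIF and 1 µg/mL doxycycline, and at 24 and 48 h they had received doxycycline for 12 h and then serum medium without it. Any difference between 0 h and a later time therefore also holds the change of medium. CUT&RUN, in which an antibody guides a nuclease to a bound protein, gave 2 replicate peak lists for each of 15 groups. The GATA6 antibody was used at 0, 2, 4, 8 and 48 h. NANOG or SOX2 was mapped up to 8 h at the same early times, and each of the later PrE factors GATA4 or SOX17 once, at 24 h. The labels do not say whether replicates were separate cultures. The study states that replicate experiments were done independently, without naming separate cultures, so their spread may be technical. The lists hold positions of binding and no RNA, so expression of the members and the labelled cell type could not be checked.

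The GATA6 lists at 4, 8 and 48 h are given here by the time written in their file and peak names. The database record assigns them differently: lists named 48 h are recorded as 4 h, lists named 4 h as 8 h, and lists named 8 h as 48 h. Every value given for GATA6 at 48 h below would be a 4 h value by the record, every 4 h value an 8 h value, and every 8 h value a 48 h value.

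List length varied widely, from 5933 to 79358 peaks for GATA6 after induction, 2255 to 52285 for NANOG, 11540 to 52574 for SOX2, 4006 to 8427 for GATA4 and 27328 to 41979 for SOX17. The uninduced GATA6 lists held 86 and 882 peaks. Read totals are not in the lists, but the background coverage used by the peak caller, in fragments per base, was worked back from each peak's fold together with its p-value. It was 0.287 and 0.315 in the uninduced GATA6 lists and 0.928 to 1.34 in the induced ones. It was 0.865 to 1.31 for NANOG, 0.290 to 0.692 for SOX2 and 1.23 to 1.55 for SOX17, and it could not be recovered for GATA4. Weak SOX2 sites and weak uninduced GATA6 sites were therefore harder to detect. Within NANOG at 8 h the lists held 5510 and 2255 peaks, with 12 and 0 peaks near the members.

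Summits of all lists within 200 bp of the next were joined into sites, named here by their distance from the TSS of the member. A site was called bound in a group when both lists of the group had a peak there. Of 229401 sites, 247 lay near a member, 133 of these rested on a peak in 1 list only, and 85 were bound in at least 1 group. Of the 85, the nearest protein-coding TSS was that of the member for all but 25. Those 25 lay closer to a neighbour such as Golga4 beside Eomes, Sap30l beside Hand1 or Urad and Pdx1 beside Cdx2. The sequences of some of the sites described below are shown next, in GRCm38 (mm10). Each is 201 bases around the strongest summit of the site in any list. GATA words are in capitals (the word AGATAA with its variant AGATAG, and the word TGATAA with its variant TGATAG, searched on either strand). The first group holds sites that GATA6 took at 2 h at Elf5, Gata2, Gata3 and Hand1. The second holds sites at Tfap2c, Tead4 and Cdx2 that NANOG or SOX2 occupied before induction. GATA6 also took each of these at 2 h, and in the first group the Elf5 site 47.6 kb upstream had a SOX2 peak in 1 list at 0 h.
Elf5 47.6 kb upstream, chr2:103363975-103364175, plus strand: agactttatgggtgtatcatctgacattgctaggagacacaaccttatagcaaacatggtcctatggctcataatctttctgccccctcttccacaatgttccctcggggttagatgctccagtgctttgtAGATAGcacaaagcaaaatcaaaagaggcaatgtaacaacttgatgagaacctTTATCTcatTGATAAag
Elf5 5.5 kb upstream, chr2:103406097-103406297, plus strand: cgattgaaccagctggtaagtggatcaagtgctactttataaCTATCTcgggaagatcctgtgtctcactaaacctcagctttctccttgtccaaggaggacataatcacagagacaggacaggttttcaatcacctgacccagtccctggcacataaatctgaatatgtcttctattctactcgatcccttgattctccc
Gata2 2.9 kb upstream, chr6:88190883-88191083, plus strand: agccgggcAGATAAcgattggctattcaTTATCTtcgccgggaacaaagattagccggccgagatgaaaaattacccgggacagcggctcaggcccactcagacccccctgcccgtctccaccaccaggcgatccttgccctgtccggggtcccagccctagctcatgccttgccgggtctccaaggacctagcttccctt
Gata3 31.4 kb upstream, chr2:9921363-9921563, plus strand: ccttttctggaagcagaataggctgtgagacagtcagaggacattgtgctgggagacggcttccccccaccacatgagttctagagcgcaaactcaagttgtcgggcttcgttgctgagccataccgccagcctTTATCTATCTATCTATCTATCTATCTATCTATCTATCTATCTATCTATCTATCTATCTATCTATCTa
Hand1 27.5 kb downstream, chr11:57805224-57805424, plus strand: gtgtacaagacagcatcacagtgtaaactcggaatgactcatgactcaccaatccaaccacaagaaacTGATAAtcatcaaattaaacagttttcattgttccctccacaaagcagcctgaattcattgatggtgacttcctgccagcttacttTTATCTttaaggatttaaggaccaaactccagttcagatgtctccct
Tfap2c 32.8 kb upstream, chr2:172516716-172516916, plus strand: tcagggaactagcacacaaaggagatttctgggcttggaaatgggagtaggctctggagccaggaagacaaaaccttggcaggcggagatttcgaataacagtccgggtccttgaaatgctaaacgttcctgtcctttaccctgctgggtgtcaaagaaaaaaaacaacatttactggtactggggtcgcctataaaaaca
Tfap2c 27.8 kb downstream, chr2:172577245-172577445, plus strand: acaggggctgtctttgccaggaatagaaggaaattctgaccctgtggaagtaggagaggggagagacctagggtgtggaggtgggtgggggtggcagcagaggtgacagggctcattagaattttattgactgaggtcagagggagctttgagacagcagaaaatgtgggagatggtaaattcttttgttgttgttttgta
Tead4 46.1 kb downstream, chr6:128254654-128254854, plus strand: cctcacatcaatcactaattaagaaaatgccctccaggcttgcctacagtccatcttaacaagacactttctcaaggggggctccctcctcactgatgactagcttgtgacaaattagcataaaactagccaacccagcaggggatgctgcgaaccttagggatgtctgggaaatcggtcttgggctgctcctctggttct
Cdx2 2.6 kb downstream, chr5:147304582-147304782, plus strand: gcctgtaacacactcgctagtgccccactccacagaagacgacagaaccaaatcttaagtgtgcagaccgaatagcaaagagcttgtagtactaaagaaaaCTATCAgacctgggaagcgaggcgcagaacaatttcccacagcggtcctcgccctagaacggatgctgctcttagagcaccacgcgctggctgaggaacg

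The Elf5 site 47.6 kb upstream held 3 GATA words and 3 SOX words (the word ACAATG with its variant ACAAAG, on either strand). The Gata2 site held 2 GATA words and 1 SOX word, and the Hand1 site held 2 of each. The Gata3 site ended in a tandem repeat in which overlapping GATA words were counted 16 times, a simple repeat where placement of short reads is less certain. No GATA word lay in the windows of the Tfap2c and Tead4 sites, and the Cdx2 and Elf5 5.5 kb windows held 1 each. The windows of the GATA6 sites Elf5 38.8 kb upstream and Gata3 14.2 kb upstream, which are not shown, held no GATA word either. The windows are centred on the strongest peak of any factor, so they need not be centred on the GATA6 summit. Word counts of the 2 groups are therefore not a comparison at GATA6 summits. A match describes these letters only, and the lack of one says nothing about a factor.

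GATA6 had bound sites at all 8 TE regulators at 2 h and at 2 of them at 48 h. Both lists shared 59 sites near the members at 2 h, 42 at 4 h, 26 at 8 h, 4 at the last time and none before induction. The 59 became 86 without GATA6 2 h replicate 1 and 100 without replicate 2, since a peak in the remaining list then sufficed. All 8 members had a bound site at 2 h, against 73.9% of all protein-coding genes, and all 8 at 4 h, against 67%. At 8 h 7 members had one, all but Cdx2, against 55%. At 48 h 2 members did, Elf5 and Gata2, against 18.4%. At 0 h no member did, against 0.00456%. The member share at 48 h was thus near that of all genes. Member windows were denser than average, with 11.7 GATA6 peaks per gene at 2 h against 4.54 over all genes. Whether member shares above those of all genes, here and below, go beyond this density was not tested.

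In numbers of peaks, the 8 windows together held 0 and 2 in the uninduced lists, 100 and 87 by 2 h, then 53 and 64 (4 h), 34 and 40 (8 h) and finally 5 and 9 (48 h). Both uninduced peaks were near Eomes. Every member had more peaks in both 2 h lists than in both 48 h lists, as did 80.1% of the 19665 genes with a GATA6 peak. Tead4 led at 2 h with 20 and 21 peaks, followed by Tfap2c with 16 and 15, and only 0.811% of genes had as many as Tead4. Cdx2, with 8 and 7, and Hand1, with 9 and 6, had the fewest among the members. At 48 h Elf5 had 4 and 4 peaks, Gata2 had 1 and 2, and none of the other 6 members had more than 1 in a list. Elf5 thus carried 57.1% of the members' GATA6 peaks at 48 h, after 12.3% at 2 h.

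The change of GATA6 peak number with time passed for all 8 members (two-sided exact permutation test on log2(peak number + 1), adjusted p between 0.0205 and 0.0491 over all genes), where 47.4% of genes passed. The test took in the uninduced lists, so a pass can rest on the rise from 0 h. It does not show a fall between 2 and 48 h. Eomes was nearest to the threshold, with an adjusted p of 0.0491. With 1 list left out in turn, Cdx2 or Eomes or both missed the threshold in each of the 10 fits, with adjusted p up to 0.0953 (exact permutation test). Hand1 missed it without GATA6 2 h replicate 1, at 0.0545, and the other 5 members passed in every fit. No gene passed the exact permutation test with a window of 10 kb, nor without the 0 h lists, a comparison chosen after seeing the data. Without the 0 h lists all 8 members and 7501 of 19639 genes had an unadjusted p under 0.05. The smallest p possible was then 0.00952, which passes adjustment only if a large share of genes reach it. That fit therefore cannot show that the induced times were alike. The length of the lists also fell over the induced times. Scaled to list length, both 48 h lists still held fewer member peaks than every earlier induced list. Per 10000 peaks of a list, the windows held 12.6 and 13.9 peaks (2 h), 11.1 and 11.8 (4 h), 11.9 and 13.2 (8 h) and 8.43 and 9.21 (48 h). With only the strongest 5933 peaks kept in each induced list, they held 9 and 7 (2 h), 8 and 5 (4 h), 8 and 11 (8 h) and 5 and 7 (48 h), ranges that overlap between 2 and 48 h, and no gene passed the test. With these short lists Elf5 kept 5 and 3 peaks at 2 h and 4 and 3 at 48 h.

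**Figure D1:**
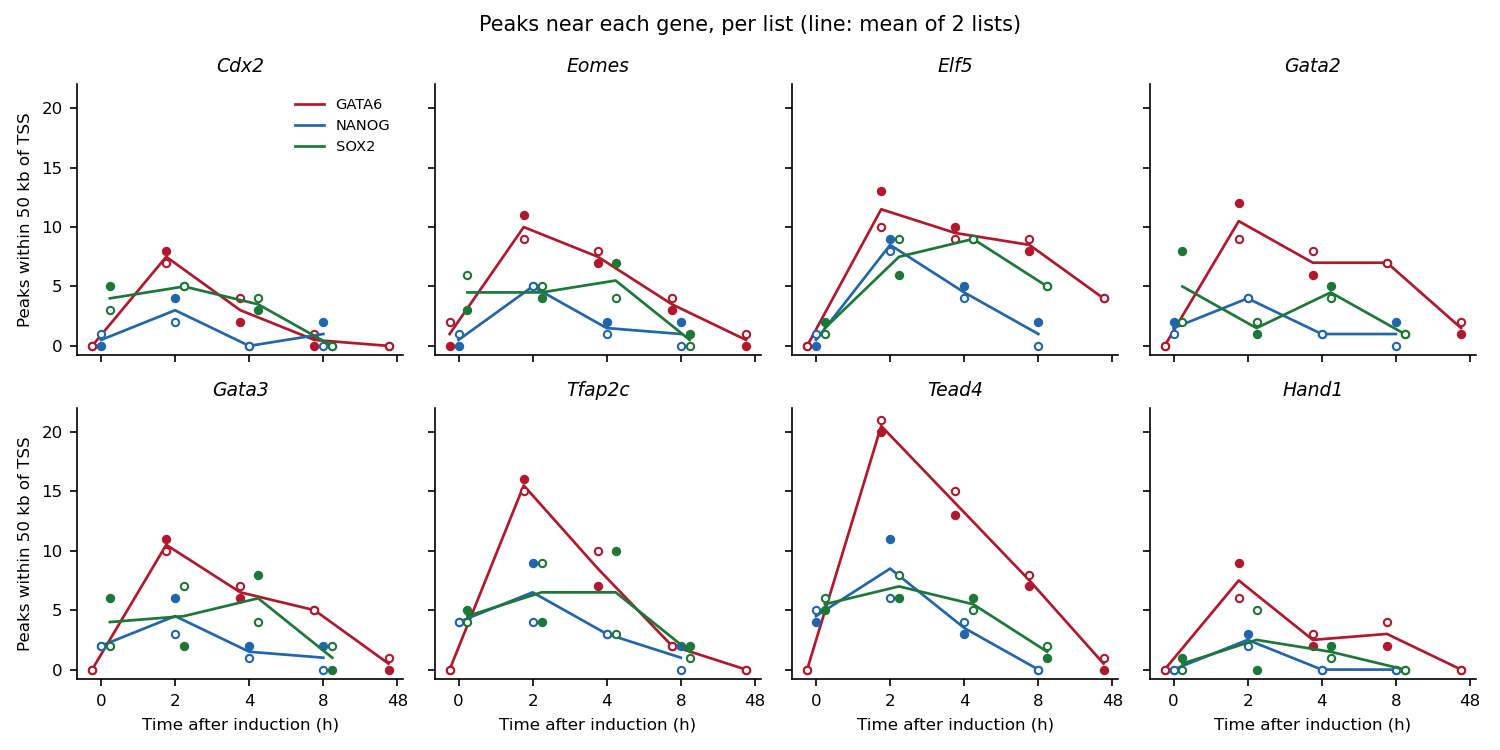
Peaks within 50 kb of the TSS (vertical axis, number) of each TE regulator at each time after induction (horizontal axis, h, evenly spaced steps), for GATA6 (red), NANOG (blue) and SOX2 (green). Filled and open points are the lists of replicate 1 and 2 and lines join their means; GATA6 rose to between 6 and 21 peaks at 2 h and was at 4 in both lists for Elf5 at 48 h, where no other member had more than 2.

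The members were compared with genes of the other lineages by count alone. GATA6 had on average 11.7 peaks per gene near the members at 2 h and 0.875 at 48 h. Near 19 further trophoblast genes it had 11 and 0.763, and near 8 Epi genes 12.8 and 1.5. Near 8 PrE genes, among them targets that GATA6 is known to switch on, it had 6.38 at 2 h and 4.19 at 48 h. Over all protein-coding genes the averages were 4.54 and 0.483. TE regulators thus had more GATA6 peaks than PrE genes early and fewer late, and both replicates gave this order. Genes with peaks in both 48 h lists numbered 2 of 8 among the members, 6 of 19 further trophoblast genes, 6 of 8 Epi genes and 7 of 8 PrE genes, against 4518 of 21938 protein-coding genes, or 20.6%. For the change over time, 17 of 19 further trophoblast genes, 7 of 8 Epi genes and 4 of 8 PrE genes passed the GATA6 test, against the 47.4% of all genes. As for the members, none of these passed without the 0 h lists, with the 10 kb window or at equal list length, where no gene did.

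Elf5 encodes an ETS factor that keeps trophoblast stem cells self-renewing and is silenced by DNA methylation in ES cells. It had the strongest GATA6 sites of the list. Of 10 bound sites near Elf5, GATA6 held 9 by 2 h, 8 by 4 h, 7 by 8 h and 3 by 48 h. At 47.6 kb upstream, inside the long noncoding RNA gene A930006I01Rik (intronic), GATA6 fold enrichment was 46.6 and 45 by 2 h, then 21.5 and 43.2 (4 h), 16.1 and 14.1 (8 h) and 9.34 and 5.86 (48 h). The 2 h lists lay above both 8 h lists, and these above both 48 h lists. Over the 26991 GATA6 2 h sites near protein-coding genes the median fold was 6.88 and the 99th percentile 41.1. At 10.8 kb upstream the fold was 26.9 and 19.4 at 2 h, 21.1 and 32.3 at 4 h and 13.1 and 15.5 at 8 h, and no peak was called at 48 h. At 5.5 kb upstream it was 28.6 and 19.1 by 2 h, then 22.0 and 21.8 (4 h), 22.2 and 14.2 (8 h) and 8.39 and 8.53 (48 h). This site and the 47.6 kb site were bound at all 4 induced times. At 38.8 kb upstream GATA6 was bound at 2, 4 and 48 h, with 18.8 and 13.9 at 2 h and 5.72 and 4.53 at 48 h, and a peak in 1 list at 8 h.

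NANOG and SOX2 were bound at Elf5 sites at 2 h, as GATA6 was. Neither was bound there at 0 h in both lists. The NANOG lists at 2 h were also longer than those at 0 h. NANOG had a 0 h peak in 1 list at 1 of the 10 sites, and SOX2 had a 0 h peak in 1 list at 3 of them. At 2 h NANOG was bound at 7 of the 10 sites, 6 of which had no NANOG peak in any 0 h list. SOX2 was bound at 5 at 2 h, 3 of which had no SOX2 peak in any 0 h list. At 47.6 kb upstream NANOG fold was 29.4 and 14.8 at 2 h and 17.2 and 7.75 at 4 h, with no peak in the 0 h and 8 h lists. SOX2 at this site was 5.65 in 1 list at 0 h, then 13.1 and 35.5 (2 h), 21.8 and 16.7 (4 h) and 10.1 and 10.4 (8 h). At 10.8 kb upstream NANOG was 4.61 in 1 list at 0 h and 27.7 and 16.2 at 2 h, and SOX2, without a 0 h peak, was 11.4 and 20.4. At both sites every 2 h fold of these factors lay above the only 0 h peak, though without a peak no 0 h fold is known. At 33.1 kb downstream, in an exon of Elf5, SOX2 reached 9.37 and 11.9 at 2 h and 18 and 14.3 at 4 h with no 0 h peak. SOX17, a PrE factor, was bound at 4 of the 10 sites at 24 h, among them 47.6 kb upstream with 6.60 and 7.06. At 2.0 kb downstream, in an intron of Elf5 and the bound site nearest its TSS, GATA6 was 9.51 and 6.95 at 2 h and 11.6 and 10.2 at 4 h, and NANOG was 5.55 and 5.30 at 2 h. In peak number, NANOG had 0 and 1 peaks at 0 h and 9 and 8 at 2 h, and SOX2 had 2 and 1 before induction, 6 and 9 by 2 h, 9 and 9 by 4 h and 5 and 5 by 8 h. Neither course passed the exact permutation test: adjusted p was 0.333 for NANOG and 0.722 for SOX2, with 8 lists each.

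Part of the GATA6 2 h sites of the members had a NANOG or SOX2 peak in a 0 h list already, 22 of 59 or 37.3%, against 41.0% over all protein-coding genes. By member these were 4 of 7 at Gata3, 4 of 9 at Elf5, 4 of 10 at Tfap2c, 2 of 5 at Gata2, 3 of 8 at Eomes, 1 of 3 at Cdx2, 4 of 13 at Tead4 and 0 of 4 at Hand1. Tfap2c and Tead4 thus did not stand out by this count, and are described next for the SOX2 folds of such sites. TFAP2C is a transcription factor of the AP-2 family that TE and germ cells share. SOX2 at 0 h had its highest folds of all members at Tfap2c. At 27.8 kb downstream SOX2 fold was 33.1 and 35.3 (0 h), 28.9 and 31.5 (2 h), 34.8 and 17 (4 h) and 13.2 and 8.99 (8 h). NANOG at this site was 9.43 and 16.3 at 0 h, 16.6 and 17.5 at 2 h and 8.47 and 16.0 at 4 h, and no peak was called at 8 h. GATA6 joined with 12.3 and 13.7 at 2 h and 8.33 and 11.7 at 4 h and was absent from the lists at 8 and 48 h. The 8 h lists of SOX2 lay below all earlier ones. At 32.8 kb upstream SOX2 was 26.9 and 22.2 at 0 h and 10.2 and 17.3 at 2 h, while GATA6 was 16.2 and 12.8 at 2 h and 9.99 and 9.54 at 4 h. At 4.8 kb upstream SOX2 was 12.4 and 16.0 at 0 h and 5.40 and 9.73 at 2 h, and GATA6 was 13.4 and 9.54 at 2 h. At both upstream sites the 0 h SOX2 folds exceeded the 2 h ones, and GATA6 had no peak at 8 h. In all, GATA6 was bound near Tfap2c at 10 sites by 2 h, 4 by 4 h, 2 by 8 h and none by 48 h. Its longest held 2 h site, 41.5 kb downstream with 11.3 and 8.59 at 2 h and 7.09 and 5.89 at 8 h, had no NANOG or SOX2 peak in any list. SOX17 and GATA4 were bound at no Tfap2c site.

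**Figure D2:**
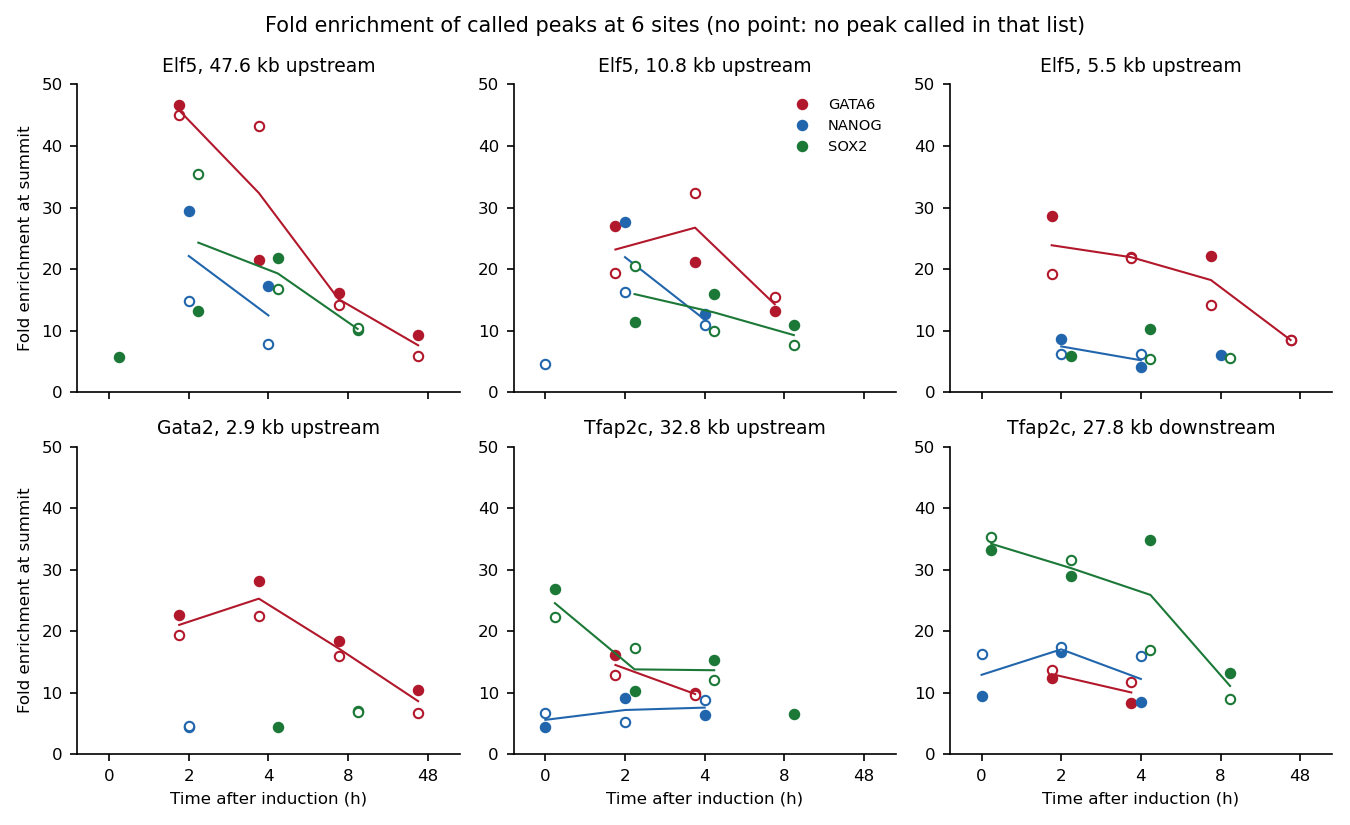
Fold enrichment at the summit (vertical axis, ratio) against time after induction (horizontal axis, h, evenly spaced steps) at 3 Elf5 sites, 1 Gata2 site and 2 Tfap2c sites for GATA6 (red), NANOG (blue) and SOX2 (green). Filled and open points are replicate lists 1 and 2, lines join means where both lists had a peak, and a missing point means that no peak was called; SOX2 began at 33.1 and 35.3 at Tfap2c 27.8 kb downstream and had at most a peak in 1 list at 0 h at the Elf5 sites.

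TEAD4 binds DNA with Hippo pathway co-activators and is the earliest acting member. Its gene had the most bound sites, 19, of which 16 lay within Tead4 itself. GATA6 held 13 by 2 h, 11 by 4 h, 5 by 8 h and none by 48 h. NANOG held 4 at 0 h and SOX2 held 5. At 33.9 kb upstream, in an intron of Tulp3, SOX2 fold was 25.4 and 22.0 at 0 h, 10.4 and 13.6 at 2 h and 11.2 and 6.39 at 4 h, and a peak was called in 1 list at 8 h. GATA6 there was 6.88 and 5.87 at 2 h. At 46.1 kb downstream all 3 factors met: NANOG was 6.30 and 5.52 and SOX2 6.74 and 4.63 at 0 h, and GATA6 was 14.4 and 10.6 at 2 h and 5.43 and 6.91 at 8 h. At 18.5 kb downstream NANOG was 6.83 and 9.22 at 0 h and 16.0 and 14.4 at 2 h, so that both 2 h lists lay above both 0 h lists. The strongest GATA6 site at 2 h, 14.7 kb downstream with 18.2 and 13.9, had no NANOG or SOX2 peak at 0 h and was bound by GATA4 at 24 h with 4.64 and 5.02. GATA4, which PrE cells make after GATA6, was also bound at 2.3 kb downstream with 6.07 and 8.27. SOX17 was bound at 6 Tead4 sites, among them 0.1 kb downstream, in an exon, with 3.46 and 11.

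GATA2 and GATA3 are the GATA factors of the trophoblast. At Gata2 the main site lay 2.9 kb upstream, with GATA6 fold of 22.6 and 19.4 (2 h), 28.1 and 22.4 (4 h), 18.4 and 16.0 (8 h) and 10.5 and 6.74 (48 h). It was the only site outside the Elf5 window that GATA6 still held at 48 h, and GATA4 was bound there at 24 h with 4.64 and 7.44. NANOG at this site was 4.46 and 4.63 at 2 h, and SOX2 was bound at 8 h with 6.98 and 6.77. At 0.8 kb downstream of the Gata2 TSS, in an intron, SOX2 was 3.34 and 5.60 at 0 h and GATA6 was 5.07 and 4.99 at 2 h. SOX17 was bound at none of the Gata2 sites.

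At Gata3 the strongest GATA6 site was the repeat 31.4 kb upstream in an intron of Taf3, with 15.4 and 15.2 at 2 h, 14.9 and 16.3 at 4 h and 8.43 and 13.1 at 8 h. No NANOG peak was called there in any list. At 29.7 kb downstream GATA6 was 7.65 and 8.19 at 2 h, 15.9 and 12.8 at 4 h and 10.6 and 13.2 at 8 h, so that both later pairs lay above both 2 h lists. NANOG was bound at this site at 4 h with 8.58 and 6.72. At 34.0 kb downstream NANOG was 7.36 and 4.15 and SOX2 5.65 and 12.7 at 0 h, and GATA6 was 5.98 and 7.10 at 2 h. Near the TSS, 0.6 kb downstream and in an exon of the overlapping gene 9230102O04Rik, GATA6 was 6.41 and 5.21 at 2 h, and 1 list had a peak at 4 h. At 14.2 kb upstream the 3 factors met at 2 h, GATA6 with 12.4 and 10.3, NANOG with 9.01 and 7.17 and SOX2 with 13 and 10.4, where each of NANOG and SOX2 had a peak in 1 list at 0 h. SOX17 was bound at 3 Gata3 sites, the strongest 37.4 kb upstream in Taf3 with 9.40 and 7.06 and no peak of another factor.

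EOMES is a T-box factor of trophoblast stem cells that also acts in definitive endoderm and mesoderm. GATA6 held 8 Eomes sites by 2 h, 5 by 4 h, 2 by 8 h and none by 48 h. The GATA6 site 13.1 kb upstream was 7.27 and 9 at 2 h, 12.8 and 14.3 at 4 h and 10.9 and 18.6 at 8 h, so that both 4 h lists lay above both 2 h lists. At 18.3 kb downstream, a region of 627 bp whose nearest TSS is that of Golga4, SOX17 reached 27.1 and 31.8 at 24 h, while GATA6 was 11.3 and 5.29 at 2 h and GATA4 5.43 and 4.96 at 24 h. At 10.7 kb downstream SOX17 was 16.3 and 15.8 and GATA6 had no peak in any list. At 0.2 kb upstream of the TSS SOX2 was bound at 0 h only, with 4.94 and 5.08. Within the gene, in an exon 4.0 kb downstream, GATA6 was 10.9 and 9.82 at 2 h and SOX17 6.34 and 5.5 at 24 h. At 34.8 kb downstream, in an intron of Golga4, GATA6 was 14.5 and 9.01, NANOG 8.21 and 9.01 and SOX2 7.60 and 11.8 at 2 h.

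HAND1 drives giant cell differentiation of the trophoblast. No site near Hand1 had a NANOG or SOX2 peak in both 0 h lists. At 27.5 kb downstream, in an intron of Sap30l, GATA6 was 10.3 and 16.1 at 2 h and 4.95 and 3.76 at 8 h, and NANOG was 9.96 and 13.3 at 2 h with no peak at any other time. At 41.7 kb downstream SOX17 reached 26.3 and 25.9 at 24 h and GATA6 was 5.67 and 5.58 at 2 h. SOX17 was bound at 5 of the 7 bound sites within 50 kb of the Hand1 TSS. All 5 lay nearer to the TSS of Sap30l, among them the site 31.3 kb downstream, 0.2 kb from that TSS.

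CDX2 is the factor that closes the inner cell mass program in TE. Its strongest GATA6 site was the weakest among those of the 8 members. GATA6 held 3 sites at 2 h, 2 at 4 h and none later, and that site, 25.6 kb upstream in an intron of Flt3, had folds of 5.13 and 7.37. NANOG was bound at no Cdx2 site at any time. SOX2 was bound at 0 h 2.6 kb downstream, in an intron of Cdx2, with 16.1 and 12.7, and had a peak of 4.09 in 1 list at 2 h and none after that. GATA6 at this site was 5.84 and 3.27 at 2 h. SOX2 was also bound at 0 h 0.1 kb upstream of the TSS, with 3.27 and 5.03, and at 29.7 kb downstream at 0, 2 and 4 h, nearer to Pdx1.

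**Figure D3:**
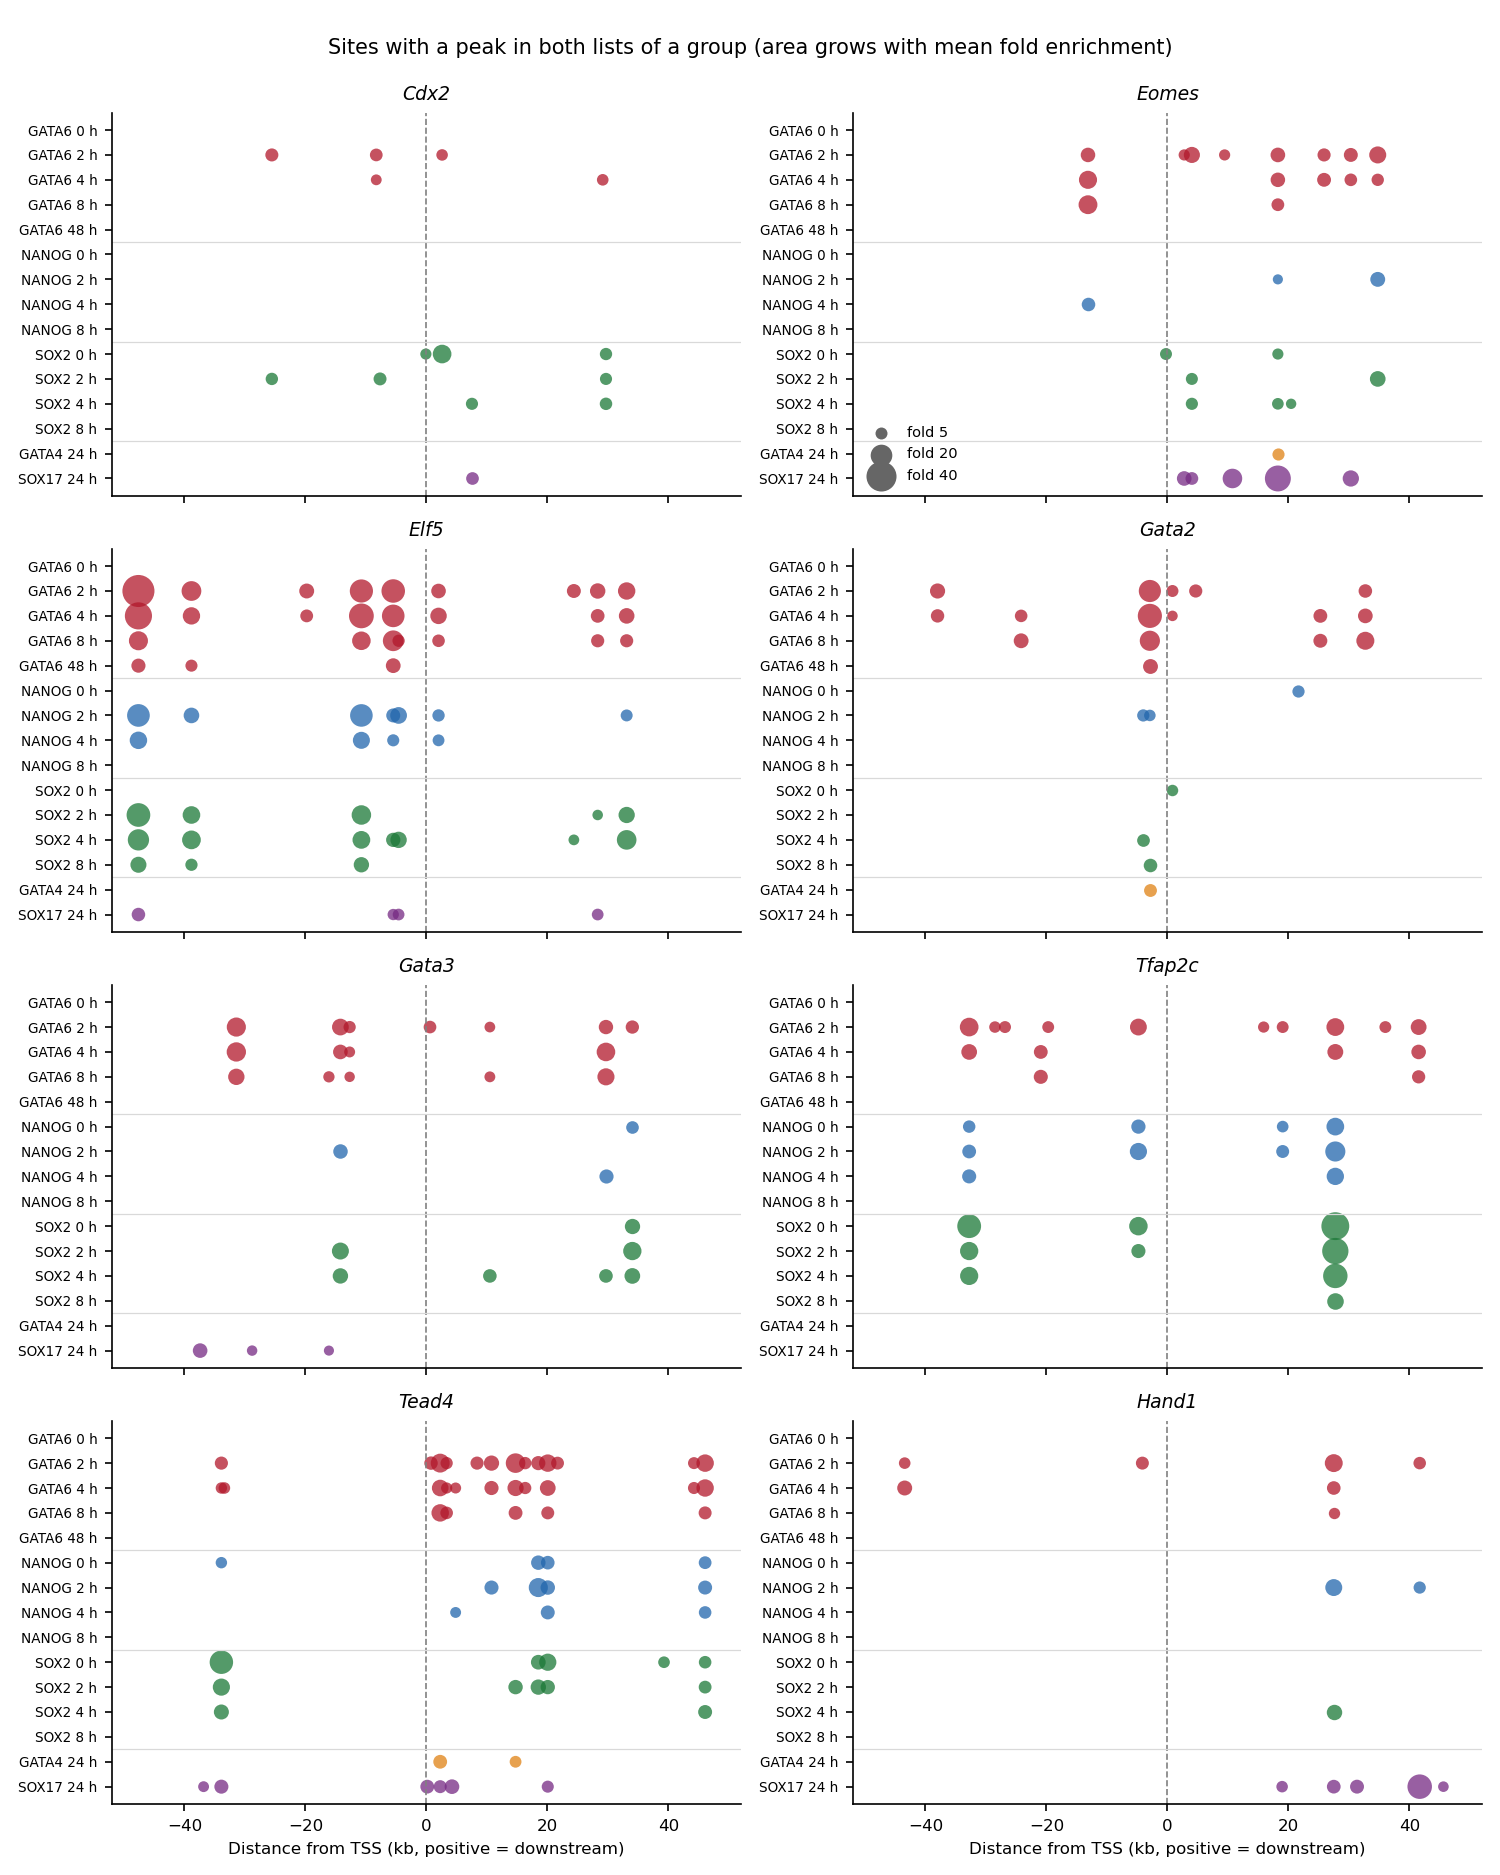
Bound sites of each TE regulator by distance from the TSS (horizontal axis, kb, positive downstream) for the 15 groups (vertical axis), with GATA6 red, NANOG blue, SOX2 green, GATA4 orange and SOX17 purple. Dot area grows with mean fold enrichment of 2 lists; the Elf5 panel shows NANOG and SOX2 rows empty at 0 h and filled at 2 h at GATA6 sites, and the Tfap2c panel shows them filled from 0 h.

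Over all members, NANOG had its most sites at 2 h. It was bound at 10 sites before induction, 22 by 2 h, 11 by 4 h and none by 8 h. Members with a NANOG site numbered 4 at 0 h, against 26% of all genes, 7 at 2 h, against 52.4%, 5 at 4 h, against 26.4%, and 0 at 8 h, against 2.73%. The 7 at 2 h left out Cdx2. The windows held 12 and 15 NANOG peaks at 0 h, 51 and 34 at 2 h and 16 and 14 at 4 h. The NANOG lists at 2 h were also longer, with 52285 and 26742 peaks against 10693 and 16180 at 0 h. Per 10000 peaks of a list, the windows held 11.2 and 9.27 (0 h), 9.75 and 12.7 (2 h) and 10.7 and 9.64 (4 h). These ranges overlap. Each member but Tfap2c had more peaks in both 2 h lists than in both 0 h lists, 7 of 8, against 47.1% of genes. Member windows held 5.31 NANOG peaks per gene at 2 h against 2.39 over all genes, which leaves more room for such a difference. Of the 22 NANOG sites at 2 h, 12 had no NANOG peak in any 0 h list, and 10 of these 12 were bound by GATA6 at 2 h. Over all protein-coding genes the same counts were 6056 of 11378 and 4822 of 6056, or 53.2% and 79.6%, close to the member shares of 54.5% and 83.3%. No member passed the exact permutation test for NANOG, and 0% of genes did. Tead4 and Tfap2c had an unadjusted p under 0.05, as did 2199 of 19089 genes. The smallest p that 8 lists allow is 0.00952. By limma's moderated F test 20.3% of genes passed, and of the members Tead4 (adjusted p = 0.0104) and Hand1 (adjusted p = 0.00590) did.

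SOX2 was bound at 15 member sites before induction, 20 by 2 h, 22 by 4 h and 5 by 8 h. Members with a SOX2 site numbered 6 at 0 h, all but Elf5 and Hand1, against 54.9% of all genes, 6 at 2 h, against 53.4%, 8 at 4 h, against 55.8%, and 3 at 8 h, against 32.2%. The windows held 35 and 24 SOX2 peaks (0 h), 28 and 50 (2 h), 50 and 34 (4 h) and 10 and 11 (8 h). Elf5 was the only member with more peaks in both 2 h lists than in both 0 h lists, against 11.5% of genes. All 8 members had fewer in both 8 h lists than in both 4 h lists, against 35.4% of genes. Member windows held 5.25 SOX2 peaks per gene at 4 h against 2.19 over all genes, which leaves more room for such a fall. The 8 h SOX2 lists were also short and their background coverage was 0.290 and 0.436, and the part of depth in this fall was not tested. No member passed the exact permutation test for SOX2, with 0% of genes called, and Elf5 alone had an unadjusted p under 0.05, as did 560 of 19951 genes. By limma's moderated F test no gene passed either, with 3214 at an unadjusted p under 0.05.

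The PrE factors were present at TE regulators at 24 h. SOX17 was bound at 24 sites and near 6 members, all but Gata2 and Tfap2c, against 55% of all genes. GATA4 was bound at 4 sites and near 3 members, Eomes, Gata2 and Tead4, against 17.9%. Of the 24 SOX17 sites 12 were bound by GATA6 at 2 h, or 50.0% (exact 95% interval 29.1 to 70.9), against 53.9% over all protein-coding genes, and 5, or 20.8%, had no GATA6 peak in any list, against 19.4%. All 4 GATA4 sites were GATA6 2 h sites, as were 76.5% of the 2138 GATA4 sites near all protein-coding genes.

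The later history of the 59 GATA6 2 h sites near the members was close to that of the 26991 near all protein-coding genes. GATA6 was still bound at 36 at 4 h, or 61.0% (exact 95% interval 47.4 to 73.5), against 61.2% over all genes. At 8 h the share was 35.6% (23.6 to 49.1), against 37.5%, and at 48 h 6.78% (1.88 to 16.5), against 5.81%. By the record the 48 h share would be 35.6%. NANOG was bound at 15.3% of these sites at 0 h (7.22 to 27), against 11.1%, and at 33.9% at 2 h (22.1 to 47.4), against 34.0%. SOX2 was bound at 18.6% at 0 h (9.69 to 30.9), against 23.7%, and SOX17 at 20.3% at 24 h (11 to 32.8), against 26.3%. Each of these intervals held the value of all genes. Leaving out GATA6 2 h replicate 2 gave 4% for GATA6 at 48 h, and leaving out GATA6 48 h replicate 1 gave 10.2%. Leaving out NANOG 2 h replicate 2 gave 52.5% for NANOG at 2 h, leaving out GATA6 2 h replicate 2 gave 20% for it and 9% for NANOG at 0 h, leaving out GATA6 2 h replicate 2 or SOX2 0 h replicate 2 gave 12% or 30.5% for SOX2 at 0 h, and leaving out SOX17 24 h replicate 1 gave 35.6% for SOX17. The intervals cover counting error over sites only, and sites of 1 gene share their surroundings. By class, 22 sites were bound at 2 h and at no later time. Of the later times, 15 were bound at 4 h only, 17 at 4 and 8 h, 3 at 4, 8 and 48 h, 1 at 4 and 48 h and 1 at 8 h only. The 4 sites that GATA6 held at 48 h had a median 2 h fold of 22.4, and the other 55 had 6.75. Of these 4, 3 were near Elf5 and 1 near Gata2. The 48 h lists were also the shortest induced ones, and this contrast was not taken over all genes.

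**Figure D4:**
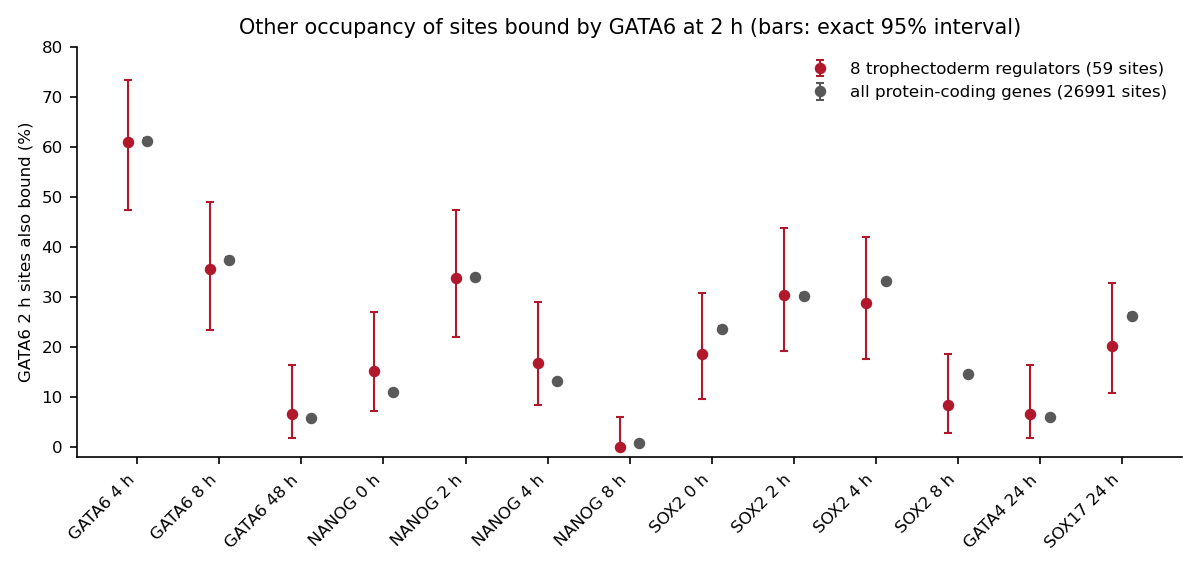
Share of GATA6 2 h sites that were also bound in each other group (vertical axis, percent; horizontal axis, group), for the 59 sites near the 8 TE regulators (red) and the 26991 near all protein-coding genes (grey). Bars are exact 95% intervals for counting error; the red intervals hold the grey values in all 13 groups.

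GATA words lay within 100 bp of the GATA6 summit at 33 of the 59 sites, or 55.9%, against 52.1% of the 26991 sites near all protein-coding genes. The share was 9 of 22 at sites with a NANOG or SOX2 peak in any 0 h list, or 40.9%, and 24 of 37 at the others, or 64.9%. Over all protein-coding genes these shares were 36.8% and 62.7%. Sites still bound at 8 h held a word in 15 of 21 cases, or 71.4%, and sites not bound at 8 h in 18 of 38, or 47.4%, against 65.3% and 44.1% over all genes. SOX words lay in 32.2% of the member sites and in 31.6% of all.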

How the data were processed

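Peak lists from CUT&RUN of 30 out of 57 samples were analysed, 2 in each of 15 groups taken from the sample titles. Samples of histone modifications, an IgG control and embryos, 27 in number, were not used here. According to the methods of the study, Bowtie2 placed the reads on mm10, SAMtools took out blacklisted regions, Picard handled duplicates (which were retained), and MACS called narrow peaks per library against a rabbit anti-rabbit library. The deposited lists give position, a score (a whole-number form of the q-value, not used), a fold enrichment (a ratio, pileup over local background at the summit), −log10 p-value, −log10 q-value and summit offset. In the deposited lists every q-value was at or below 0.05. A fold exists only where a peak was called, and it depends on depth, so folds are given per list. Background coverage was solved from fold and p of the 30 commonest pairs in each list, and kept where at least 4 pairs shared it.

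Genes came from GENCODE vM21 on GRCm38, the same build; no peak lay outside its chromosome lengths. Summits within 200 bp were joined into sites. Distances follow the strand of the member. For each factor, log2(peak number + 1) per gene went into an exact permutation test (two-sided) of the between-time sum of squares over all 945 (GATA6) or 105 (NANOG, SOX2) ways to pair the lists, with Benjamini-Hochberg adjustment over all protein-coding genes with a peak and a threshold of 0.05. Where only 1 time point differs, 105 of the 945 GATA6 arrangements keep its lists together, so p is then seldom small. A comparison of 2 lists with 2 cannot give a p below 0.333 and was not tested. Shares carry exact binomial 95% intervals. Members and comparison lists were chosen with earlier results of these data known. Named sites were, for each member, the strongest by mean GATA6 2 h, NANOG 0 h and SOX2 0 h fold, the site bound in most groups, all bound sites within 1 kb of the TSS and all bound by GATA6 at 48 h. All other sites named, among them Elf5 10.8 kb upstream and those led by SOX17, were chosen after their values were seen. Python 3 with numpy, pandas, scipy and pysam, and limma in R were used.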

Additional observations from a re-analysis of the deposited data

How the results depend on the processing

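Gene-wide calls for GATA6 depended on the setting. Against 9323 genes as reported, 5737 were called with only peaks at −log10 q of at least 5 (7 of 8 members, without Cdx2) and 15681 by limma's moderated F test (8 of 8 members). None was called with a window of 10 kb (5591 genes and 5 members at unadjusted p under 0.05) or with equal list length (2596 genes and 1 member). The same held with the 0 h lists left out (7501 genes and 8 members, added after seeing the data, smallest p possible 0.00952). It held too with the replicate block (0 genes called, 7737 genes and 7 members at unadjusted p under 0.05, smallest p possible 0.00833). With 1 list left out in turn, 6816 to 9155 genes and 5 to 7 members were called. Replicate numbers did not pair the lists: deviations of same-numbered lists correlated between -0.127 and 0.0846 across genes. For NANOG, limma's moderated F test called 3868 genes where the exact permutation test called none, and the replicate block, the other settings and leaving out a list called 0 to 0. For SOX2 every setting run called none, limma's moderated F test and the replicate block included, and leaving out a list gave 0 to 0, with 3214 genes at unadjusted p under 0.05 by limma.

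The number of GATA6 2 h sites near the members was 127 with a peak in either list, and 86 to 100 with a GATA6 2 h list left out, 100 without replicate 2. The share bound by GATA6 at 48 h was 35.6% by the record and 4.00 to 10.2% with a list left out. The share bound by NANOG at 0 h was 9 to 22.0%, by NANOG at 2 h 20.0 to 52.5%, by SOX2 at 0 h 12.0 to 30.5% and by SOX17 at 24 h 15.0 to 35.6% with a list left out. The 52.5% came without NANOG 2 h replicate 2 and the 35.6% without SOX17 24 h replicate 1. The share with a GATA word was 74.6% within 200 bp, where 74.7% of sites near all genes held one, and 45 to 55.8% with a list left out. Wider joining of summits and the stricter q threshold moved no share beyond its interval. Weak sites in the shallower SOX2 and uninduced GATA6 lists may be missed, and a site without a peak is not shown to be unbound.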
